A study of Rattus norvegicus with 9 samples.

Results

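Staufen2 was targeted in rat cortical neurons with a lentiviral short hairpin RNA (shStau2). RNA read counts per gene in these cultures were compared with those in cultures given a control hairpin (shControl). The comparison takes 6 of the 9 libraries of the study, the 3 titled shStau2 and the 3 titled shControl, chosen by their titles alone. All groups were primary cortical neurons in culture for 14 days, transduced for the last 4 of them, and no other agent or allele is named in the labels. The remaining 3 libraries (shPum2, aimed at Pumilio2, same culture and times) enter here in the estimate of the spread and as values set beside the others. They also enter the filter on low counts, the scaling and the mean level over the 9 libraries by which rows are ordered. The strain and the origin of the replicates are not in the labels; a p-value here is therefore set against the spread of these samples alone, and that spread may be technical. In whole cultures fewer cells of a type and less RNA per cell cannot be told apart.

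Staufen2 is a double-stranded RNA-binding protein that is abundant in neurons. It binds structured stretches of messenger RNA and is found in the RNA granules that carry messages into dendrites, and it is known for roles in the localisation and the stability of its targets. A hairpin against it asks which transcripts depend on its level, in either direction.

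Every value below is a count of reads, and the counted strand relative to the messenger RNA is not known. The library kit keeps the strand, and in the 6 libraries gene rows took 1.76% to 2.14% of the reads listed. Gene counts summed to 783538 to 934384 per library, so 1 CPM (a count relative to the filtered gene total of its library, after TMM scaling) stood for 0.72 to 0.939 counts. Each file lists 32883 gene rows by Ensembl identifier without symbols, and 0 of these identifiers were found in the reference table used here. The level of Stau2, the markers of neurons and glia and the function of any row were therefore not checked, no sequence could be matched to a row, and rows are described by abundance, with identifiers for the 2 most abundant that fell and the 2 most abundant that rose. Of the 32883 rows, 5697 passed the filter on low counts and were tested, and 15908 had no count in any of the 9 libraries.

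Loss was the more frequent call. In shStau2, 44 rows fell and 6 rose (edgeR quasi-likelihood test, Benjamini-Hochberg adjusted p under 0.05), which is 0.772% and 0.105% of the rows tested and 0.878% for both directions together. The rows that fell had means of 8.39 to 10133 CPM over the 9 libraries, with a median of 58.1 CPM. The rows that rose lay between 10.9 and 145 CPM. The median change was -1.94 log2 units among the rows that fell and 1.92 among those that rose, against 0.04 over all rows tested. In the 50 rows called the shStau2 and control libraries did not overlap, a state that over all rows held for 10.1% below and 6.79% above the controls. The calls were made on these same libraries, so neither the medians nor the absence of overlap is a test of them.

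Rows fell in every class of abundance. Their share was 0.901% of the 222 rows under 10 CPM and 0.648% of the 4630 rows between 10 and 100 CPM. Among 714 rows between 100 and 1000 CPM it was 1.26%, and among 131 rows of 1000 CPM or more it was 2.29%, or 3 rows. The precision of the fit changed along the same axis, with a median standard error (SE) of 0.63 log2 units in the lowest class and 0.28 in the highest, and neither the order of these shares nor the part of precision in it was tested. An unadjusted p under 0.05 was found for 647 rows, or 11.4%, of which 395 were lower and 252 higher in shStau2.

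**Figure D1:**
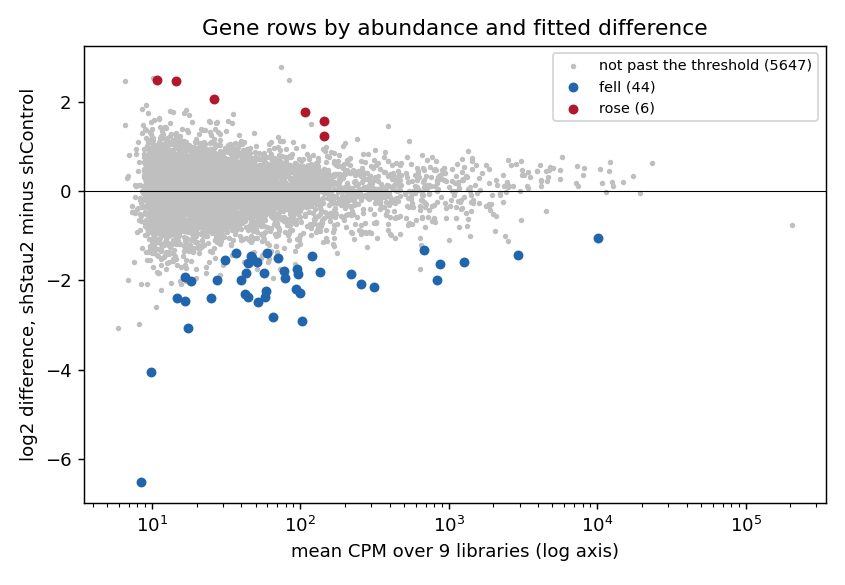
Fitted log2 difference (shStau2 minus shControl, vertical axis) of each of the 5697 rows tested against its mean CPM over 9 libraries (log axis). The 44 rows that fell (blue) run from 8.39 to 10133 CPM and the 6 that rose (red) stay between 10.9 and 145 CPM.

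ENSRNOG00000046313 was the most abundant row that fell and stood 13th among all rows tested. Its level was 12186, 12258 and 13573 CPM in the control libraries and 5128, 6143 and 7057 CPM in shStau2 replicates 1, 2 and 3. Even the highest shStau2 library was well under the lowest control, and replicate 3 was the least changed of the 3. The means were 12672 ± 781 and 6109 ± 965 CPM (SD, n = 3 each), a log2 difference of -1.05 (SE 0.24), or 2.07-fold lower, with an adjusted p of 0.0481 from edgeR. This call is at the edge of the threshold: it held in 6 of 18 other settings, and the adjusted p reached 0.263 without shStau2 replicate 2. In shPum2 the row stood at 11618 ± 2141 CPM (SD, n = 3).

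ENSRNOG00000048733 fell further from a lower level. It measured 4049, 3007 and 4181 CPM in the controls and 1533, 1355 and 1266 CPM in shStau2, a narrow range in which replicate 3 was the lowest. The log2 difference was -1.44 (SE 0.25, edgeR adjusted p = 0.0114), or 2.70-fold, and the call held in 15 of 18 settings. It was lost without shControl replicate 1 or 3 or shStau2 replicate 2, where the highest adjusted p was 0.0787. The shPum2 libraries gave 3660 ± 753 CPM (SD, n = 3).

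The other 10 rows that fell at 100 CPM or more had log2 differences between -2.92 and -1.33. The third most abundant stood at 1726 ± 360 CPM in the controls and 571 ± 150 CPM in shStau2 (SD, n = 3 each). The fifth most abundant had the smallest adjusted p of the 12, shared with the seventh. Its controls lay at 1100, 1014 and 1197 CPM and its shStau2 libraries at 234, 237 and 362 CPM, a log2 difference of -1.99 (SE 0.26, edgeR adjusted p = 0.00122). The seventh showed a drop of the same order, from 479, 407 and 464 CPM to 119, 115 and 69.4 CPM (log2 difference -2.15, SE 0.28, adjusted p = 0.00122). In both rows the 3 shPum2 libraries averaged 1136 ± 57.9 and 390 ± 58.5 CPM (SD, n = 3).

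The twelfth row fell the most of this abundant set. It had 161, 131 and 162 CPM in the controls against 34.1, 9.28 and 15.3 CPM in shStau2, which is 7.56-fold lower (log2 difference -2.92, SE 0.43, adjusted p = 0.00427), and it was lowest in replicate 2. By contrast the eighth row had scattered controls, at 273, 214 and 602 CPM, above a tight shStau2 set at 102, 88.2 and 66.6 CPM. Its log2 difference of -2.07 had an SE of 0.40 (adjusted p = 0.0182).

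**Figure D2:**
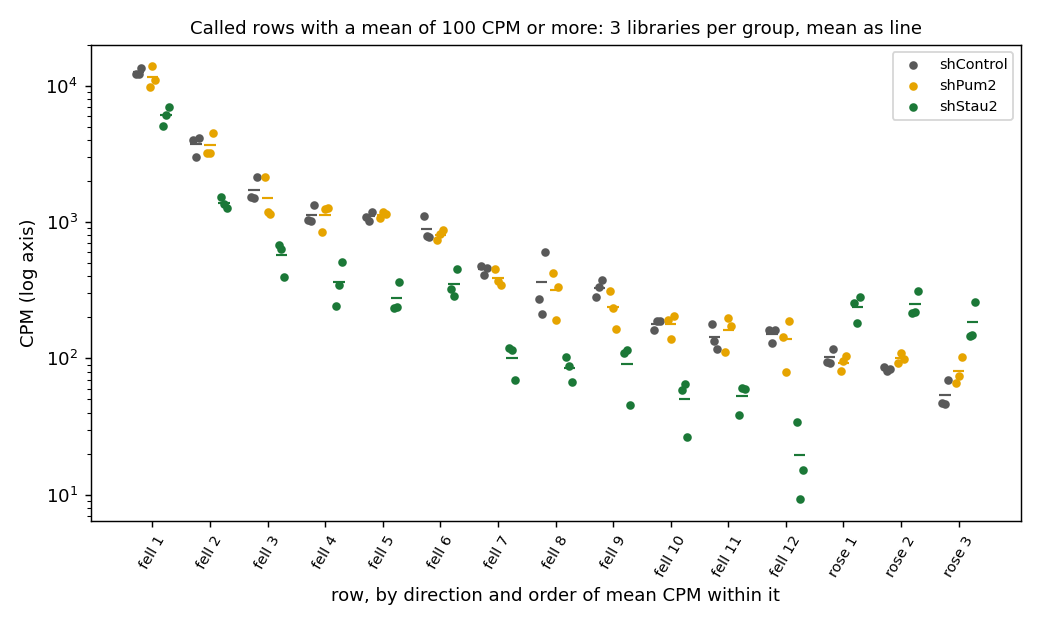
CPM (log axis) of the 15 called rows with a mean of 100 CPM or more, by direction and order of abundance, with 1 point per library and a line at the mean of each group of 3. In each of the 12 rows that fell the 3 shStau2 points lie under the 3 control points, and in the 3 that rose they lie above them; the shPum2 points are shown for comparison.

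Below 100 CPM, 32 rows fell, 30 of them between 10 and 100 CPM. The smallest adjusted p of the whole comparison belonged to the twentieth row in abundance. It fell from 115, 94.7 and 97.6 CPM to 10.7, 16.2 and 16.7 CPM, or 7.05-fold (log2 difference -2.82, SE 0.32, edgeR adjusted p = 7.11e-04), and all 3 shStau2 libraries were alike. The thirteenth row was also low in all 3, at 29.8, 37.1 and 43.0 CPM against 159, 203 and 170 CPM in the controls (log2 difference -2.28, SE 0.29, adjusted p = 0.00122). The group means of this row were 178 ± 22.9 CPM in shControl, 36.7 ± 6.61 CPM in shStau2 and 84.5 ± 12.2 CPM in shPum2 (SD, n = 3 each).

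The rarest rows rested on few reads. The row with the lowest mean, 8.39 CPM, had 34 counts over the 3 controls and 0 in shStau2, which makes it at least 11.6-fold lower when the shStau2 group as a whole is given a floor of 3 counts. The next had 38 counts against 2, a ratio of 19.4 with an exact 95% counting interval of 5.02 to 166. Of the 44 rows that fell, 3 had fewer than 10 counts over the shStau2 libraries. The 42 with more than 3 counts there changed by 1.05 to 3.08 log2 units.

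Summed, the 44 rows took 25158 ± 2003 CPM in the controls and 10042 ± 861 CPM in shStau2 (SD, n = 3 each). The 3 most abundant carried most of that sum, and without them the remaining 41 rows summed to 7014 ± 480 and 1977 ± 170 CPM. Replicate 3 matched its group here: the 41 rows summed to 1824, 1948 and 2160 CPM in shStau2 replicates 1, 2 and 3. The rows were selected for being lower in shStau2, so these sums describe their level and are no test. As CPM after TMM scaling, they are not exact shares of the counted reads.

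ENSRNOG00000022753 and ENSRNOG00000014819 were the most abundant rows that rose, at nearly equal mean levels of 144.69 and 144.66 CPM. ENSRNOG00000022753 measured 94.9, 92.4 and 118 CPM in the controls and 254, 182 and 282 CPM in shStau2 replicates 1, 2 and 3. The log2 difference of 1.23 (SE 0.27) had an edgeR adjusted p of 0.0435, and the call held in 7 of 18 settings, with an adjusted p of up to 0.24 without shControl replicate 1. ENSRNOG00000014819 was steadier in the controls, at 86.7, 80.9 and 84.3 CPM, and reached 214, 219 and 315 CPM in shStau2 (log2 difference 1.57, SE 0.27, adjusted p = 0.0104). Its call held in 15 of 18 settings and was lost without any 1 of the 3 control libraries, with an adjusted p of at most 0.0694. In shPum2 these rows stood at 93.2 ± 12.01 and 101 ± 8.54 CPM (SD, n = 3 each).

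The other 4 rows that rose were led by one at 107 CPM, which went from 46.9, 46.2 and 69.6 CPM to 147, 148 and 261 CPM (log2 difference 1.77, SE 0.33, edgeR adjusted p = 0.0169). The fifth most abundant row that rose was close to absent from the controls, with 13 counts in all and 3.52 to 6.69 CPM, and stood at 25.6, 29.0 and 34.7 CPM in shStau2 (log2 difference 2.45, SE 0.44, adjusted p = 0.014). Replicate 3 was the highest shStau2 library in 6 of the 6 rows that rose. It was the highest of the 3 in 42.6% of all rows tested, and the calls of these 6 rows used it. Together the 6 rows that rose summed to 262 ± 30.8 CPM in the controls and to 683, 654 and 1006 CPM in shStau2 replicates 1, 2 and 3.

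**Figure D3:**
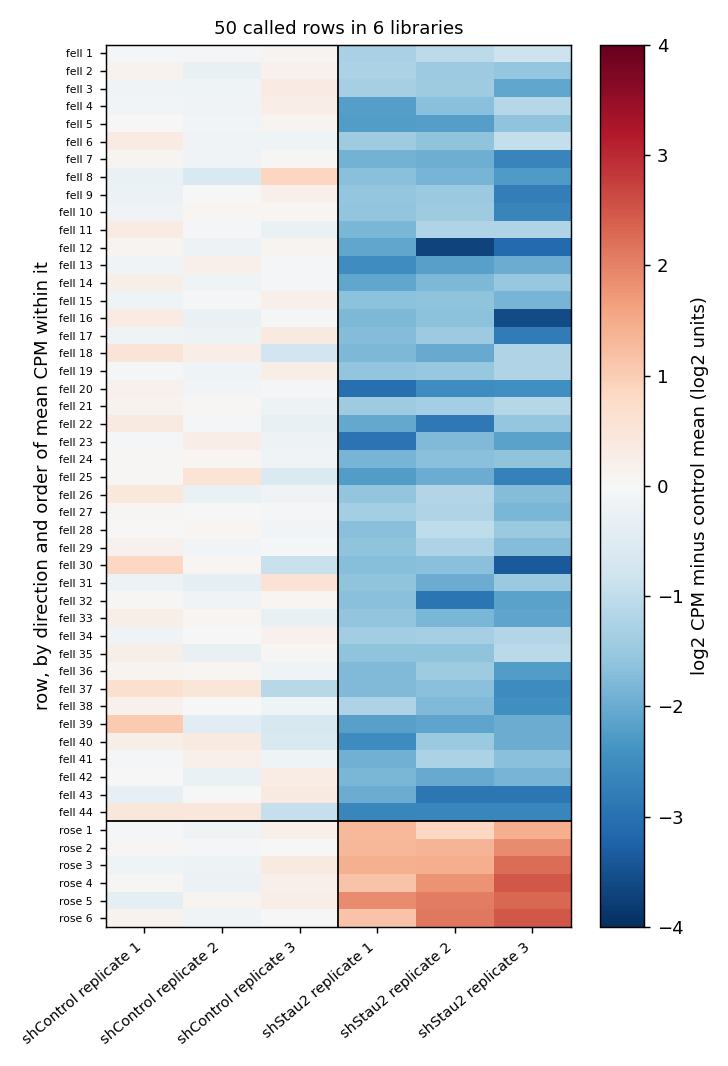
Log2 CPM minus the mean of the 3 control libraries (colour, log2 units) for the 50 called rows, by direction and order of abundance, in the 6 libraries. The median over the 44 rows that fell was -1.75, -1.67 and -1.92 in shStau2 replicates 1, 2 and 3, and over the 6 that rose it was 1.32, 1.62 and 2.27.

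By median, replicate 3 was not the weakest library in the rows that fell. Its median difference from the control mean was -1.92 log2 units, next to -1.75 and -1.67 in replicates 1 and 2. It was the least changed of the 3 in 16 of the 42 rows without ties and the most changed in 18. Replicate 2 was the least changed in 17 and the most changed in 7. Over all 5697 rows tested, the lowest of the 3 was replicate 3 in 43.9% and replicate 2 in 26.7%. The highest was replicate 3 in 42.6% and replicate 2 in 28.4%. The calls used replicate 3, so they favour rows in which it moved with the others.

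Across all rows replicate 3 stood apart from the rest of its group. Replicates 1 and 2 had a Spearman correlation of 0.90 over the 5697 rows, while replicate 3 had 0.72 and 0.74 with them, as a description across rows that share each library's depth. The 3 pairs of control libraries had 0.86 to 0.87. Rows more than 1 log2 unit apart made up 5.93% between shStau2 replicates 1 and 2, and 31.5% and 30.4% between each of them and replicate 3. Replicate 3 was also farther from the controls, with a mean Spearman correlation of 0.75 against 0.82 for each of the other two.

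The distance was not confined to rare rows. Over the 845 rows with a mean of 100 CPM or more, 25.4% and 25.0% differed by more than 1 log2 unit between replicate 3 and replicates 1 and 2, where the other shStau2 pair gave 0.947% and the control pairs 1.78% to 2.25%. Among the 131 rows of 1000 CPM or more, 18 were higher and 5 lower in replicate 3 than the mean of replicates 1 and 2 by that margin. In the class of 10 to 100 CPM the balance was the other way, with 983 lower and 373 higher. Replicate 3 also had the fewest rows with a count, 11567 against 12390 to 13510 in the other 5 libraries, and its 803406 gene counts were above the 783538 of shControl replicate 3. After TMM scaling the order was reversed. There 1 CPM stood for 0.72 counts in shStau2 replicate 3, fewer than in any other library compared, and for 0.748 in shControl replicate 3. The part of detection in this distance was not tested.

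**Figure D4:**
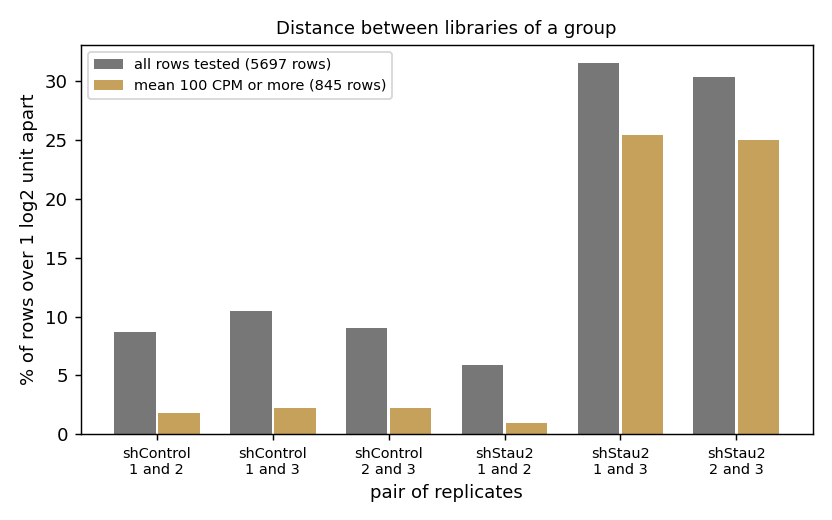
Share of rows whose log2 CPM differs by more than 1 unit between 2 libraries of a group (vertical axis, %), for all 5697 rows tested and for the 845 rows with a mean of 100 CPM or more. The 2 pairs that include shStau2 replicate 3 stand at 25.0% to 31.5%, and the other 4 pairs at 0.947% to 10.5%.

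To ask how replicate 3 behaves in rows that it did not help to choose, the fit was repeated without it. In that fit 84 rows fell and 28 rose of 6334 tested, or 1.33% and 0.442%. Replicate 3 was then read in those rows. The control libraries are the same in both steps, so a control value that is high or low by chance counts towards both.

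Replicate 3 was on the side of the call, relative to the control mean, in 78 of the 84 rows that fell and in 16 of the 28 that rose. The share of all rows on each side of that mean was not computed, so these counts have no level to be set against. Of the 84 rows that fell without it, replicate 3 lay below all 3 controls in 71, or 84.5%, where it did so in 38.1% of all 6334 rows. Of the 28 that rose, it lay above all 3 controls in 13, or 46.4%, against 34.3% of all rows, and in 12 it was below the control mean. The median difference in the 84 rows was -1.07 log2 units in replicate 3, and -1.58 and -1.46 in replicates 1 and 2. In the 28 rows it was 0.23 in replicate 3, and 1.38 and 1.44 in the other two. The difference between the directions was not tested.

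A row that is called only once a library is left out tends by construction to be one in which that library differs from the others. Leaving out replicate 3 also lowered the common coefficient of variation, the fitted spread between libraries over all rows, from 0.29 to 0.228. Without any other library compared it was 0.291 to 0.309. The part of this change in the added calls was not tested. All 44 rows that fell in the full fit and 5 of the 6 that rose were called again. The 40 rows that fell only without it had a median of -0.51 log2 units in replicate 3, against -1.22 and -1.20 in replicates 1 and 2, and 6 of them were above the control mean in it. Many were abundant. For this count the mean CPM was taken anew from log2 CPM with its prior count, on the rows tested without replicate 3. By that mean, 40 rows that fell without replicate 3 had 100 CPM or more, and 13 of them were called with it. The thirteenth row is among these 13, at 101 CPM by that mean and 99.5 CPM by the mean used elsewhere. For the 23 rows that rose only without it, replicate 3 had a median of -0.02, against 1.39 and 1.43.

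**Figure D5:**
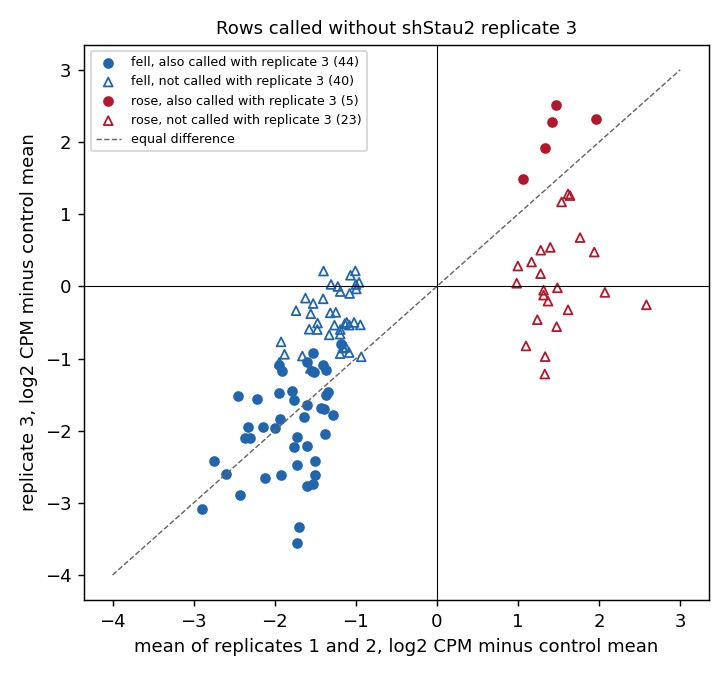
Rows called without shStau2 replicate 3, with the mean of replicates 1 and 2 (horizontal axis) against replicate 3 (vertical axis), each as log2 CPM minus the control mean. The dashed line marks equal differences; of 84 rows that fell 6 lie above 0 in replicate 3, and of 28 that rose 12 lie below it.

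The same reading was made for the other 5 libraries. Left out in turn, shStau2 replicates 1 and 2 lay beyond all 3 controls in 23 of 23 and 16 of 16 rows called without them, in the direction of the call. Over all rows tested, these 2 libraries were below the 3 controls in 29.1% and 29.8% of rows and above them in 29.2% and 28.8%. The control libraries lay beyond all 3 shStau2 libraries in 16 of 16, 23 of 24 and 23 of 23 rows, where their shares over all rows were 20.5% to 24.02% per direction. For shStau2 replicate 3, both directions together, the library lay beyond all 3 controls in 84 of 112 rows, or 75.0%. These shares come from lists of unlike length, and on the longer lists at an unadjusted p under 0.05 they were 46.8% for replicate 3 (1023 rows) and 67.8% to 78.9% for the other 5 libraries (498 to 643 rows).

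The number of rows called depended on single libraries. The 50 became 16, 24 and 23 without shControl replicates 1, 2 and 3, 23 and 16 without shStau2 replicates 1 and 2, and 112 without shStau2 replicate 3. A core of 10 rows, all of which fell, was called in all 18 alternatives, including each left-out library. They had mean levels between 42.6 and 839 CPM and included the fifth, the seventh, the twelfth, the thirteenth and the twentieth rows in abundance, and their log2 differences ran from -1.76 to -2.92. No row that rose was called in every alternative that gave it an adjusted p.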

How the data were processed

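The members, lists and rules used here were chosen with earlier results of these data known. Raw read counts per gene row, 1 library per file, were deposited by the authors, and the submitters' processing notes name bcl2fastq 2.19.1.403 and STAR 2.6.1a. For the build, annotation and counted strand, the setting is not given in the sources used here. The 4 rows that name no gene hold the reads not assigned to a gene row (97.9% to 98.2% of those listed in the 6 libraries). The row for reads on no counted feature alone held 86% to 87.7% of the reads listed. All 4 rows were left out of library sizes and tests.

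Counts were filtered with filterByExpr, scaled with TMM and fitted in edgeR 4.0.16 (R 4.3.3) with a quasi-likelihood model of 1 coefficient per group over all 9 libraries. Tests were two-sided with Benjamini-Hochberg adjustment over all rows tested and a threshold of 0.05. Log2 CPM used a prior count of 2. Alternatives included DESeq2 1.42.0, limma 3.58.1 (voom) and each library left out; dropping a library also loosens the filter. Rows named by identifier are, in each direction, the 2 called rows with the highest mean CPM. Same-numbered control and shStau2 libraries were not treated as pairs. Counting intervals cover counting error only.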

Additional observations from a re-analysis of the deposited data

How the results depend on the processing

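The split of 44 rows that fell and 6 that rose stayed within 1.5 times with RLE or upper-quartile factors, 5 CPM in 3 libraries and limma-voom without weights. Elsewhere it was 76 and 13 with no filter, 68 and 11 with DESeq2 (3 of the 50 rows had no adjusted p there), 139 and 48 once limma-voom weighted libraries by quality, and 25 and 5 when only the 6 libraries compared were fitted. Leaving out 1 of these 6 libraries gave 14 to 84 that fell and 0 to 28 that rose, and leaving out an shPum2 library, an alternative chosen after seeing the data, gave 32 to 46 and 4 to 9. With the replicate number as a block, 68 fell and 15 rose, with all 50 rows kept. That block lowered the common coefficient of variation from 0.29 to 0.261. The correlations of same-numbered control and shStau2 deviations were -0.25, 0.18 and 0.11, so the numbers were not taken as pairs, and not every library correlated best with its own number. The shPum2 libraries were not part of these correlations, and whether the replicate number carries shared variation was not tested. At an unadjusted p under 0.05 in place of the adjusted one, the left-out libraries lay beyond all 3 libraries of the other group in 76.7%, 67.8% and 78.9% of rows for shControl replicates 1, 2 and 3, and in 71.4%, 76.4% and 46.8% for shStau2 replicates 1, 2 and 3. For shStau2 replicate 3 the Spearman correlation with replicates 1 and 2 averaged 0.729, and 0.755 to 0.77 over rows with 5 CPM in 3 libraries or a mean of 100 CPM, filters chosen after seeing the data. No log2 difference of the 4 rows named by identifier changed direction. Depth limits the comparison most below 10 CPM, where the median SE was 0.63 log2 units.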
